A study of Mus musculus and Rattus norvegicus with 36 samples.

Results

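Kidneys of Se-deficient mice were compared with kidneys of Se-adequate mice across every probe set of the mouse array. The comparison holds 6 of the 36 arrays of the series, 3 from Se-deficient kidney and 3 from kidney of mice fed 0.2 μg Se/g diet, chosen by their sample titles and not by any measured value. Male weanling mice from a wild-type colony of mainly C57 black background ate a torula yeast diet for 35 days, either without added Se or with sodium selenite, and all diets were supplemented with vitamin E and methionine. A marginal diet with 0.05 μg Se/g was fed to 3 further mice, and livers of all diets were run on the same array type. Each array held RNA from 1 kidney sample, so the p-values rest on the spread between 3 mice per diet. That spread was taken over all 9 kidney arrays, the marginal diet included.

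Selenium acts mainly through selenoproteins, which carry the amino acid selenocysteine. Selenocysteine is inserted at a UGA codon that would otherwise end translation, with the help of a hairpin in the mRNA called the SECIS element. When Se is short, a subset of selenoprotein mRNAs is known to be degraded while others are kept, a ranking known as the selenoprotein hierarchy. The kidney takes up selenoprotein P from the filtrate in its proximal tubules and makes plasma glutathione peroxidase. The transcription factor Nrf2 is held down by Keap1 under basal conditions and, when released by oxidants or electrophiles, raises genes for conjugation, reduction and efflux.

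The values are log2 expression levels, so that a difference of 1 is a doubling. The 9 kidney arrays had medians between 6.24 and 6.29. Pearson correlations over all probe sets were 0.9924 to 0.9965 within a diet and 0.9928 to 0.996 between Se-deficient and Se-adequate kidney, 2 ranges that overlap almost entirely. The tissue was checked by kidney markers. Kap, the androgen-regulated protein of the proximal tubule, had 14.81, 14.77 and 14.84 in Se-deficient kidney and 14.68, 14.78 and 14.81 in Se-adequate kidney. Umod, the uromodulin of the thick ascending limb, had 13.63, 13.74 and 13.70 in Se-deficient kidney and 13.63, 13.61 and 13.74 in Se-adequate kidney. Both markers were high on all 6 arrays, and the diets overlapped.

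In Se-deficient kidney 3 transcripts fell, and all 3 encode selenoproteins: Selenoh, Gpx1 and Selenow. No transcript rose at the same threshold. In limma 3 of 45037 probe sets passed 0.05 after the Benjamini-Hochberg adjustment, which is 0.00666% of those tested. At an unadjusted p under 0.05 there were 1246 higher (2.77%) and 1196 lower (2.66%) probe sets, together 5.42%.

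Selenoh encodes selenoprotein H, a nuclear protein of the thioredoxin fold. Its level was 7.31, 7.10 and 6.99 in the 3 Se-deficient kidneys, against 8.55, 8.55 and 8.62 in the 3 Se-adequate kidneys. Every Se-deficient array lay more than 1 log2 unit below every Se-adequate array. The change was −1.44 ± 0.09 (SE), a level 2.71-fold lower in Se deficiency, with an adjusted p of 0.00041 in limma.

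Gpx1 encodes the cytosolic glutathione peroxidase that removes hydrogen peroxide, and its activity is a classical marker of Se status. Its level was 12.78, 12.48 and 12.38 in Se-deficient kidney, against 13.82, 13.85 and 13.75 in Se-adequate kidney. The diets did not overlap, and the Se-deficient arrays spread more widely than the Se-adequate ones. The change was −1.26 ± 0.10 (SE), 2.40-fold lower in Se deficiency, with an adjusted p of 0.0039 in limma. With only the arrays of the 2 diets its adjusted p was 0.067.

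Selenow encodes selenoprotein W, a small selenoprotein abundant in muscle and brain. The probe set with the highest mean gave 8.20, 8.31 and 8.31 in Se-deficient kidney, against 9.73, 9.97 and 9.43 in Se-adequate kidney. The change was −1.44 ± 0.12 (SE), 2.71-fold lower in Se deficiency, with an adjusted p of 0.0043 in limma. The other probe set of Selenow gave 6.96, 6.66 and 6.63 in Se-deficient kidney and 7.18, 7.19 and 6.90 in Se-adequate kidney, so that its groups overlapped. Its change was −0.34 ± 0.12 (SE) and did not pass the adjusted test (adjusted p = 0.89), so the probe sets of Selenow differ in the size of the change. The call on Selenow was also the least stable of the 3. Its adjusted p in limma was 0.068 with only the arrays of the 2 diets. It was 0.05008 without Se-deficient replicate 3 and 0.05175 without Se-adequate replicate 1.

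**Figure D1:**
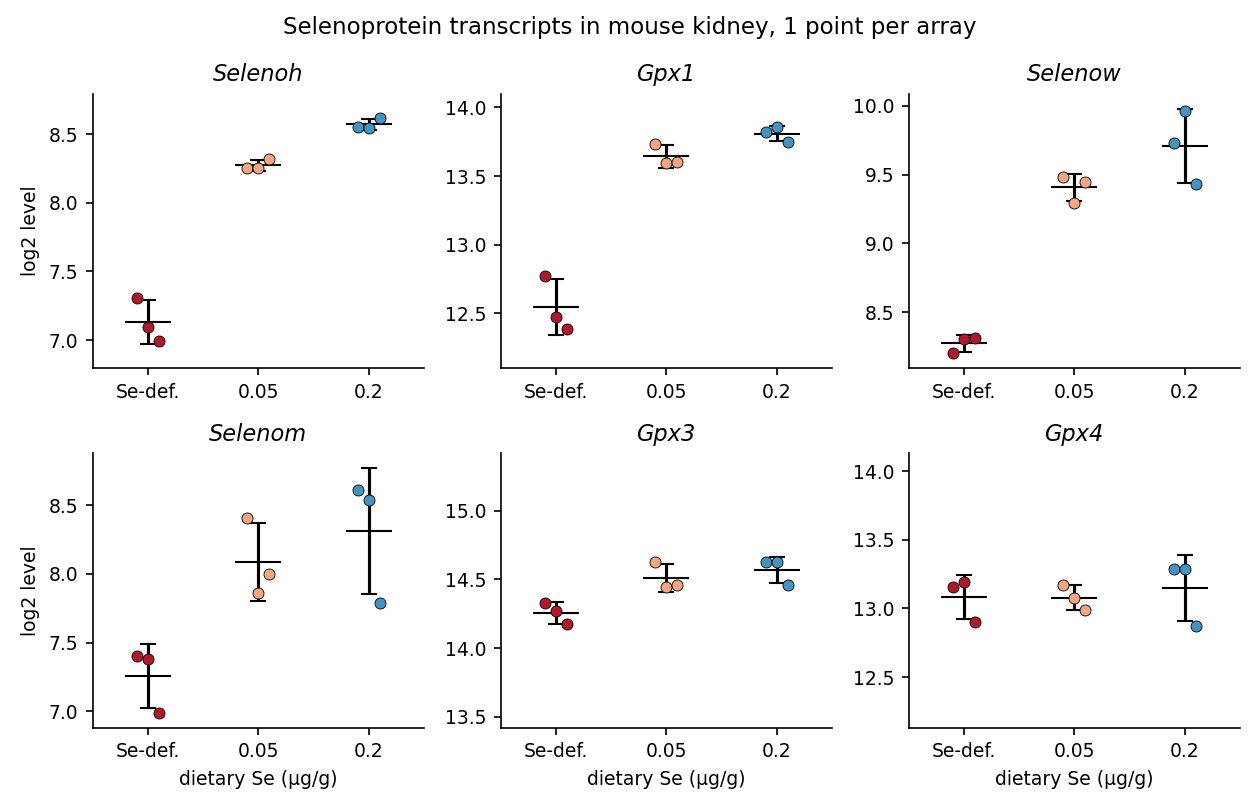
Log2 levels of 6 selenoprotein transcripts in mouse kidney by dietary Se (Se-deficient, 0.05 and 0.2 μg/g), 1 point per array, with the mean and SD of 3 arrays as bars. Selenoh, Gpx1 and Selenow lie at 7.31, 12.78 and 8.31 or below in Se deficiency and above 8.2, 13.5 and 9.2 in both other diets, whereas the diets overlap for Gpx4.

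The marginal diet separated from Se deficiency in the same transcripts. At 0.05 μg Se/g the mean level was 8.27 for Selenoh, 13.64 for Gpx1 and 9.41 for Selenow. Against 0.2 μg Se/g these means differed by −0.30, −0.17 and −0.30, so they lay between the other diets. Between 0.05 and 0.2 μg Se/g 0 of the 45037 probe sets passed the adjusted test in limma, with 1311 at an unadjusted p under 0.05. Between Se-deficient kidney and kidney at 0.05 μg Se/g, 5 probe sets were called (0.0111% of those tested). These were Selenoh, Gpx1 and Selenow, which were lower in Se deficiency by −1.14, −1.10 and −1.14, and Abcc4 and Gsta3, which were higher by 1.22 and 0.91. The comparison shares the Se-deficient arrays with the main one, so the calls are no independent evidence.

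Of 24 selenoprotein genes listed, 23 had a probe set with that symbol alone, the exception being Dio3. Lower means were found for 18 of the 23 in Se-deficient kidney and higher means for 5, with a median change of −0.24, against −0.01 over 18193 genes. Among those 18193 genes 9866 had lower means and 8325 had higher means. The adjusted test was passed by 3 of the 23, and by 0.0165% of all genes. At an unadjusted p under 0.05, 11 selenoproteins were lower and 1 was higher, where 2.93% of all genes were lower and 2.76% were higher. In 10 selenoproteins all Se-deficient arrays lay below all Se-adequate arrays, as did 4.63% of all genes. The signals of the 23 genes, returned to the linear scale and summed, came to 73250 to 74490 units in Se-deficient kidney and 86880 to 90100 units in Se-adequate kidney. Such a sum is weighted to the genes with the highest levels. Among these are Gpx3 and the called Gpx1, with means of 14.57 and 13.81 in Se-adequate kidney. In whole kidney, less RNA per cell and fewer cells of a type that makes the RNA cannot be told apart.

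Among glutathione peroxidases the changes ran from −1.26 to 0.01. Gpx3, the plasma glutathione peroxidase made in the proximal tubule, had 14.33, 14.27 and 14.17 in Se-deficient kidney, against 14.62, 14.63 and 14.46 in Se-adequate kidney. The groups did not overlap, but the difference of −0.31 ± 0.08 (SE) did not pass the adjusted test (adjusted p = 0.89, limma). Gpx4, which reduces lipid hydroperoxides in membranes, had 13.16, 13.19 and 12.90 in Se-deficient kidney, against 13.29, 13.28 and 12.87 in Se-adequate kidney. Its difference was −0.06 ± 0.12 (SE), and its other probe set gave −0.01. Gpx2, the gastrointestinal form, differed by 0.01 ± 0.09 (SE).

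Among the selenoproteins that were not called, the largest difference was in Selenom, a thioredoxin-like selenoprotein of the endoplasmic reticulum. Selenom had 7.40, 7.38 and 6.99 in Se-deficient kidney, against 8.61, 8.54 and 7.79 in Se-adequate kidney. Se-adequate replicate 3 lay well below the other Se-adequate arrays but still above every Se-deficient array. The difference was −1.05 ± 0.22 (SE), with an adjusted p of 0.89 in limma. Without Se-adequate replicate 3 it was −1.32, with an adjusted p of 0.31.

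Other selenoproteins of the endoplasmic reticulum differed by less. Selenof had 10.77, 10.83 and 10.88 in Se-deficient kidney, against 11.27, 11.06 and 11.13 in Se-adequate kidney, a difference of −0.33. Selenos, part of the machinery that removes misfolded proteins, had 11.19, 11.04 and 10.98 in Se-deficient kidney, against 11.39, 11.43 and 11.21 in Se-adequate kidney, a difference of −0.27. Selenok, a membrane protein of the same compartment, had 10.27, 10.52 and 10.30 in Se-deficient kidney, against 10.59, 10.62 and 10.61 in Se-adequate kidney. Its difference was −0.24, and its other probe set gave −0.38. The diets did not overlap in these probe sets, and each had an adjusted p of 0.89 in limma. The other probe set of Selenof gave −0.06 and those of Selenos gave −0.02 and −0.36, with overlap in all but the last. Selenot differed by −0.22, and by −0.29 to 0.03 in its other probe sets, all with overlap.

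The thioredoxin reductases, which return thioredoxin to its reduced form, lay lower in part of their probe sets. Txnrd1, the cytosolic enzyme, averaged 9.80 ± 0.18 in Se-deficient kidney and 10.19 ± 0.23 in Se-adequate kidney (SD, n = 3 each), and its 3 probe sets gave −0.38, −0.21 and −0.21, none with overlap. Txnrd2, the mitochondrial enzyme, had 8.16, 8.37 and 8.30 in Se-deficient kidney, against 8.55, 8.61 and 8.51 in Se-adequate kidney. Of its 4 probe sets, 3 gave differences from −0.27 to −0.28 without overlap and the other gave 0.09 with overlap. Txnrd3 gave −0.22, −0.42 and −0.57 in its 3 probe sets, and only the last was without overlap. No probe set of a thioredoxin reductase passed the adjusted test (adjusted p = 0.89 to 0.92, limma).

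Selenoproteins of other roles showed no call. Dio1, the deiodinase that activates thyroid hormone in liver and kidney, had 7.18, 7.29 and 7.02 in Se-deficient kidney, against 8.21, 7.29 and 7.52 in Se-adequate kidney, a difference of −0.51 with overlap. Selenop, the Se transport protein, differed by −0.10, Msrb1, a methionine sulfoxide reductase, by −0.25, and Selenoo, Selenoi and Selenon by −0.21, −0.16 and 0.00. Sephs2, a selenoprotein that makes the Se donor for selenocysteine, was the 1 selenoprotein higher at an unadjusted p under 0.05. It had 13.39, 13.25 and 13.55 in Se-deficient kidney, against 11.98, 12.73 and 13.51 in Se-adequate kidney. The Se-adequate arrays spread over more than 1.5 units and overlapped the others, and the other probe sets of Sephs2 gave −0.19 and −0.75, so the direction for this gene differs between probe sets. Dio2 lay above in all Se-deficient arrays by 0.18 in 1 probe set, while its others gave −0.05 and 0.08. Selenov differed by 0.09.

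**Figure D2:**
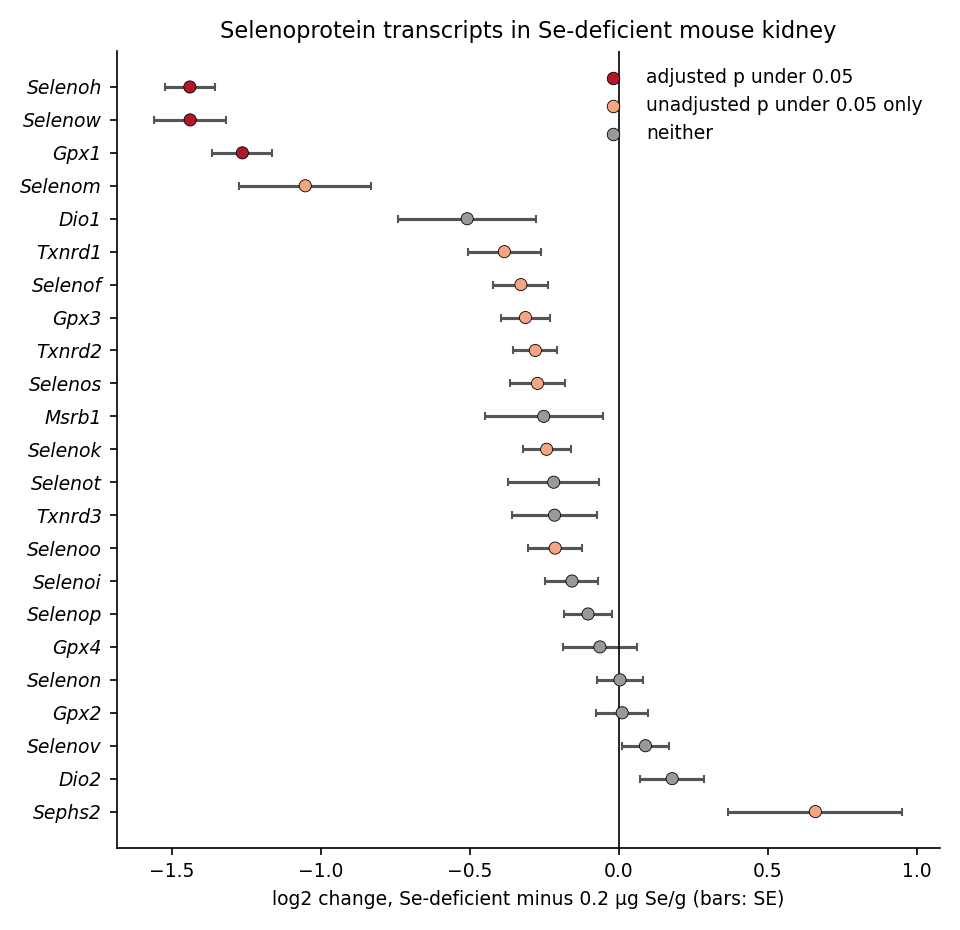
Log2 change of 23 selenoprotein transcripts in Se-deficient minus Se-adequate (0.2 μg Se/g) kidney, 1 probe set per gene, with the SE of the limma fit as bars and colours for the test passed. Selenoh, Selenow and Gpx1 lie between −1.44 and −1.26, Selenom at −1.05, and the rest between −0.51 and 0.66.

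The machinery that makes and inserts selenocysteine showed no call in 12 measured genes of 13 listed, with a median change of −0.04 and 2 higher and 0 lower at an unadjusted p under 0.05 (2.76% and 2.93% of all genes). Ncl, nucleolin, which binds selenoprotein mRNAs, had 10.33, 10.62 and 10.44 in Se-deficient kidney, against 10.20, 10.09 and 10.09 in Se-adequate kidney, a difference of 0.34 without overlap. Sars, which charges the selenocysteine tRNA with serine, differed by 0.20. Secisbp2, the protein that binds the SECIS element, had 8.73, 8.62 and 8.50 in Se-deficient kidney, against 8.91, 8.96 and 8.68 in Se-adequate kidney, a difference of −0.24 with overlap. The translation factor Eefsec differed by −0.05 and Sepsecs, which makes selenocysteine on its tRNA, by −0.04. In nonsense-mediated decay, the pathway known to degrade selenoprotein mRNAs whose UGA is read as a stop, none of 9 measured genes was called in limma, 1 was lower at an unadjusted p under 0.05 and the median was −0.03. Of the 7 genes for uptake of selenoprotein P and other filtered proteins none was called in limma or reached an unadjusted p under 0.05. Lrp2, megalin, the receptor for selenoprotein P in the proximal tubule, had 11.66, 11.93 and 12.14 in Se-deficient kidney and 11.51, 11.70 and 11.80 in Se-adequate kidney, and Cubn differed by 0.04.

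The 3 higher genes with the smallest p, Gsta3, Abcc4 and Nqo1, are Nrf2 targets, although none of them passed the adjusted test. Of 34 genes listed, 30 were measured, with higher means in 25, a median change of 0.18 and 8 higher and 0 lower at an unadjusted p under 0.05, where 2.76% of all genes were higher and 2.93% lower. In the same 8 genes all Se-deficient arrays lay above all Se-adequate arrays, as did 4.4% of all genes. Their summed linear signal was 71410 to 72970 units in Se-deficient kidney and 58600 to 68920 units in Se-adequate kidney. The list was drawn up with earlier results of these data known, and it holds genes that the study itself named from these arrays, so its count is no independent evidence of direction.

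Gsta3, an alpha-class glutathione transferase, had 9.49, 9.74 and 9.61 in Se-deficient kidney, against 8.88, 8.72 and 8.84 in Se-adequate kidney. Every Se-deficient array lay above every Se-adequate array, and the difference was 0.80 ± 0.09 (SE), with an adjusted p of 0.075 in limma. Its other probe set had 7.34, 7.51 and 7.84 in Se-deficient kidney and 6.86, 6.89 and 6.96 in Se-adequate kidney, a difference of 0.66.

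Abcc4, an efflux pump for organic anions and cyclic nucleotides, had 8.99, 8.54 and 8.80 in Se-deficient kidney, against 8.01, 7.78 and 7.78 in Se-adequate kidney. The difference was 0.92 ± 0.12 (SE), with an adjusted p of 0.11 in limma. At 0.05 μg Se/g the arrays had 7.56, 7.64 and 7.47, below both other diets. Nqo1, the quinone reductase often used as a readout of Nrf2, had 9.32, 9.67 and 9.68 in Se-deficient kidney, against 8.81, 8.78 and 8.96 in Se-adequate kidney. The difference was 0.71 ± 0.10 (SE), with an adjusted p of 0.29 in limma. The calls on these 3 genes depended on the processing. Gsta3 was called in 3 of 13 alternatives (adjusted p 0.00076 to 0.65), Abcc4 in 2 (0.033 to 0.97) and Nqo1 in 2 (0.023 to 0.999).

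Hmox1, heme oxygenase 1, had 7.58, 7.73 and 7.66 in Se-deficient kidney, against 7.38, 7.19 and 7.36 in Se-adequate kidney, a difference of 0.34. Gstm1, a mu-class glutathione transferase, had 12.53, 12.43 and 12.43 in Se-deficient kidney, against 11.99, 12.36 and 11.79 in Se-adequate kidney. The 4 probe sets of Gstm1 gave differences from 0.35 to 0.50, all without overlap, though mu-class genes are alike enough in sequence for probes to be shared. Srxn1, sulfiredoxin, differed by 0.31, Sqstm1, the autophagy receptor p62, by 0.40, and Abcc2, the apical organic anion pump, by 0.36. Each of these 5 genes had an adjusted p of 0.89 in limma. The other probe sets of Srxn1 gave 0.11 to 0.20, and in the other probe set of Sqstm1 the diets overlapped.

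Further Nrf2 targets, and other genes that the study names for Se deficiency in mice, showed overlap between the diets. Cbr3, carbonyl reductase 3, had 6.94, 6.41 and 6.50 in Se-deficient kidney and 6.45, 6.45 and 6.31 in Se-adequate kidney. Cbr1, its paralog, had 9.20, 8.95 and 8.73 in Se-deficient kidney and 9.16, 8.92 and 8.72 in Se-adequate kidney, with a difference of 0.03 ± 0.14 (SE). Gsta2 differed by 0.34 ± 0.17 (SE), Gsta4 by −0.15 ± 0.11 (SE) and Hspb1, a small heat shock protein, by −0.27 ± 0.18 (SE). Gclc and Gclm, the subunits of the enzyme that limits glutathione synthesis, differed by 0.17 and −0.24. None of 15 measured genes of glutathione supply reached even an unadjusted p under 0.05. Among 9 regulators none did either, Nfe2l2, which encodes Nrf2, differing by −0.08 and Keap1 by 0.00, while Maff, a small Maf partner, had 6.36, 6.33 and 6.36 in Se-deficient kidney and 6.44, 6.44 and 6.48 in Se-adequate kidney.

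**Figure D3:**
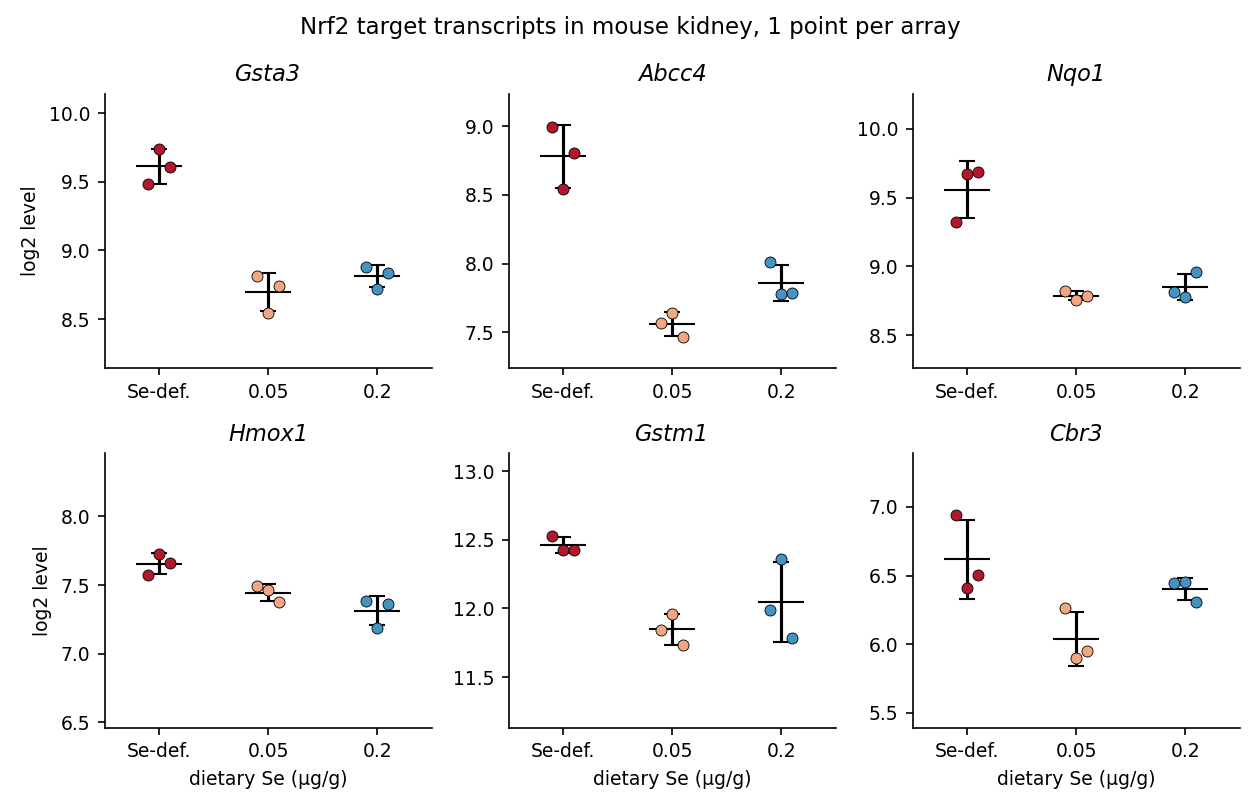
Log2 levels of 6 Nrf2 target transcripts in mouse kidney by dietary Se (Se-deficient, 0.05 and 0.2 μg/g), 1 point per array, with the mean and SD of 3 arrays as bars. For Gsta3, Abcc4, Nqo1, Hmox1 and Gstm1 the 3 Se-deficient arrays lie above all arrays of both other diets. For Cbr3 the Se-deficient arrays lie above those at 0.05 μg/g and overlap the Se-adequate ones.

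Nrf2 binds the antioxidant response element, whose core is TGACNNNGC. The windows from 250 bases before to 50 after the start of transcription (RefSeq, GRCm38.p6) were searched for this core on both strands, and 12.4% of 32851 windows held it, as did 14.0% of 27025 symbols in at least 1 window. Among measured Nrf2 targets 25 had a window and 8 of these held the core. Of the 7 with a window among those higher at an unadjusted p under 0.05, Gsta3, Abcc4, Abcc2 and Srxn1 held it. Of 23 measured selenoproteins 2 held it, Selenok and Txnrd1. The windows of the genes that hold the core and lay highest, and of Abcc2, are printed 5′ to 3′ on the strand of the gene, with the core in capitals.
Gsta3, chr1:21240335-21240634, plus strand: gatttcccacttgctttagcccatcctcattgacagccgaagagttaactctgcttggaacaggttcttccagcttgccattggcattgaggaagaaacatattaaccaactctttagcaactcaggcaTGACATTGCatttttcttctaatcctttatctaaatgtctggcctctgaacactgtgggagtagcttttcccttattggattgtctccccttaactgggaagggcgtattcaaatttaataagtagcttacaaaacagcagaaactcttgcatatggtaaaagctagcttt
Abcc4, chr14:118706170-118706469, minus strand: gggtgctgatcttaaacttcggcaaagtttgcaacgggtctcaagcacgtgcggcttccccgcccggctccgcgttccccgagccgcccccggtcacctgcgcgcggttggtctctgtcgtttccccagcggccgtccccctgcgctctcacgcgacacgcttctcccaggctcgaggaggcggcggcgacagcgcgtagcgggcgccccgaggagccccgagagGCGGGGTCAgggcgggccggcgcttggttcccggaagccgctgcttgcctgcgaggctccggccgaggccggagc
Abcc4, chr14:118676882-118677181, minus strand: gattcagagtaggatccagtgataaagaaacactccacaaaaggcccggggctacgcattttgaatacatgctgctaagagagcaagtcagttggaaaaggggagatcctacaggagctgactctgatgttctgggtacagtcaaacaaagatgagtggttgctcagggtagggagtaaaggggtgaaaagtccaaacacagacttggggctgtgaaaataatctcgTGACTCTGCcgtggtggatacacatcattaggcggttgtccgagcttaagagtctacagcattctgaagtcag
Abcc2, chr19:43782058-43782357, plus strand: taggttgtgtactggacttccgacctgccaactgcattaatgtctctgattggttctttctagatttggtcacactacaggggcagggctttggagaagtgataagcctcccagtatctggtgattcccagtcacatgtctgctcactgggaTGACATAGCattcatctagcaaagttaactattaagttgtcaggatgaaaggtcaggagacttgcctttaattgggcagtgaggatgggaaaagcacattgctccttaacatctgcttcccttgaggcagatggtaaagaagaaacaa
In Gsta3 the core starts at −121 and in Abcc2 at −98 relative to the start of transcription. Abcc4 has 2 windows, with a core that starts at −25 on the opposite strand in the first and at −23 on the strand of the gene in the other. A match is a description of the sequence, and binding was not measured.

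Glutathione transferases as a family, which shares Gsta3, Gstm1 and others with the Nrf2 list, had a median change of 0.04. Of 21 measured members Gsta3, Gstm1 and Gstp1 were higher and Gstk1 was lower at an unadjusted p under 0.05, where 2.76% of all genes were higher and 2.93% lower. Gstp1, the pi-class enzyme, had 12.65, 12.56 and 12.53 in Se-deficient kidney, against 12.20, 12.38 and 11.91 in Se-adequate kidney, a difference of 0.42. Gstk1, the kappa-class enzyme of mitochondria and peroxisomes, had 9.63, 9.53 and 9.55 in Se-deficient kidney, against 10.12, 9.79 and 9.68 in Se-adequate kidney, a difference of −0.29. Neither gene overlapped between the diets, and both had an adjusted p of 0.89. Among other peroxide-removing enzymes, Cat, catalase, had 12.18, 12.47 and 12.63 in Se-deficient kidney and 11.82, 12.01 and 12.24 in Se-adequate kidney. This was a difference of 0.40 with overlap, and the other probe set of Cat gave 0.24 without overlap.

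Markers of the proximal tubule also lay higher, with higher means in 12 of 15 genes, a median of 0.12 and none called. At an unadjusted p under 0.05, 3 were higher and 0 lower, where 2.76% of all genes were higher and 2.93% lower. Their summed linear signal was 116300 to 118900 units in Se-deficient kidney and 104900 to 113500 units in Se-adequate kidney, without overlap. Slc13a3, the sodium-dicarboxylate carrier, had 11.29, 11.62 and 11.70 in Se-deficient kidney and 10.94, 11.29 and 11.07 in Se-adequate kidney. Slc7a13, an amino acid carrier of the late proximal tubule, had 13.08, 13.17 and 13.24 in Se-deficient kidney and 12.57, 12.91 and 12.88 in Se-adequate kidney. The other probe sets of Slc13a3 gave −0.08 to 0.41 and that of Slc7a13 gave 0.04. Slc22a6, the other marker at an unadjusted p under 0.05, differed by 0.25, and by 0.28 in its other probe set, both with overlap. Of the 15 markers 1 lay above without overlap, Slc7a13, as did 4.4% of all genes. Slc22a12, the urate carrier URAT1, is not among the 15 markers. It had 12.90, 12.79 and 13.03 in Se-deficient kidney, against 12.43, 12.66 and 12.39 in Se-adequate kidney, a difference of 0.42 without overlap. Several Nrf2 targets and glutathione transferases are also genes of the tubule, and the part of the tubule markers in their differences was not tested. The largest difference among the 15 markers was 0.44, in Slc13a3.

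Se-adequate replicate 3 mattered for these lists. Without it the Nrf2 targets gave 8 higher and 3 lower at an unadjusted p under 0.05, the lower ones being Gclm (−0.54), Taldo1 (−0.38) and Gsta4 (−0.25), and the median was 0.16. Without it 9 of the 15 proximal tubule markers had higher means, with a median of 0.04. The selenoproteins then gave 13 lower and 2 higher, with a median of −0.30. Over all 18193 genes the counts without it were 751 higher and 1200 lower.

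**Figure D4:**
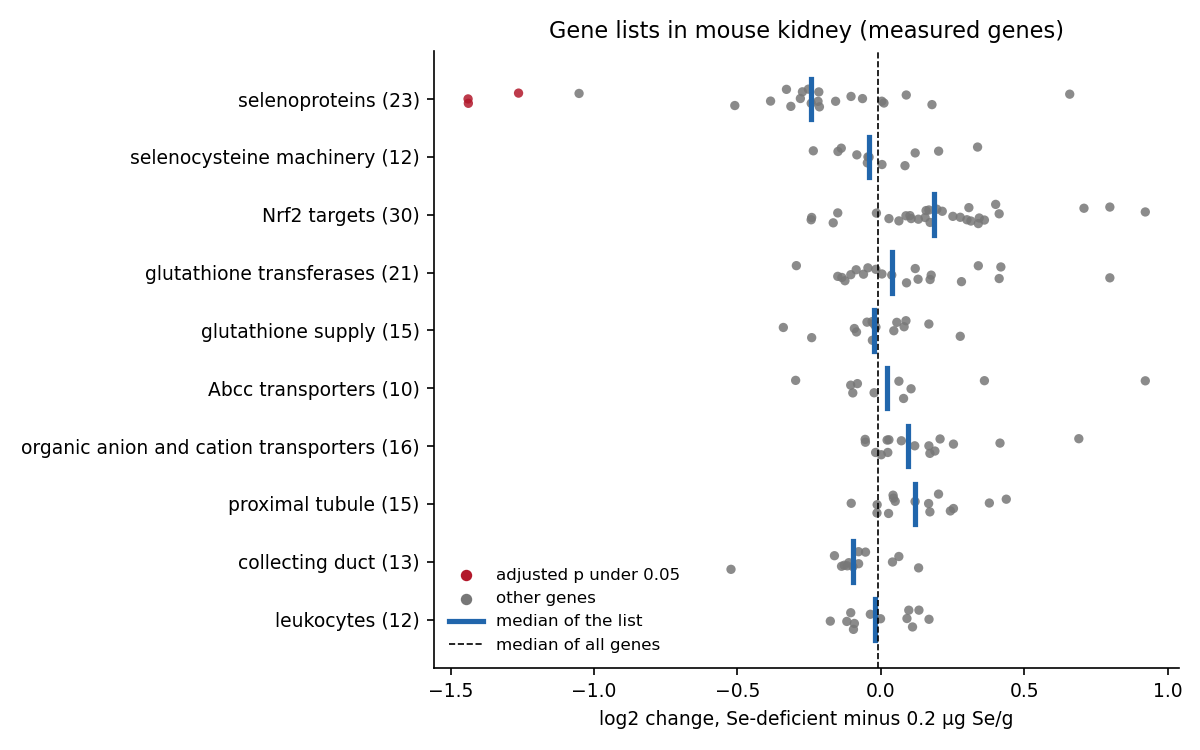
Log2 change in Se-deficient minus Se-adequate (0.2 μg Se/g) kidney of the measured genes of 10 lists, 1 point per gene, with the median of each list as a blue bar and the median of all genes (−0.01) as a dashed line. The selenoprotein median is −0.24 and the Nrf2 target median 0.18, and the only genes with an adjusted p under 0.05 are 3 selenoproteins.

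Markers of other segments and cell types showed no call in any list. Over all 18193 genes 9866 had lower means and 8325 had higher means. Collecting duct markers had lower means in 10 of 13 genes, with summed signals of 7071 to 9293 units in Se-deficient kidney and 7016 to 9970 units in Se-adequate kidney. Leukocyte markers had higher means in 5 of 12, with sums of 5567 to 9881 units in Se-deficient kidney and 6887 to 7972 units in Se-adequate kidney. Neither list had a member at an unadjusted p under 0.05. Stromal markers had higher means in 8 of 10, with 3 higher and 0 lower at an unadjusted p under 0.05 (2.76% and 2.93% of all genes), among them Col1a2 with 8.07, 8.21 and 8.43 in Se-deficient kidney and 7.98, 7.94 and 8.05 in Se-adequate kidney. Of 12 markers of tubular injury none reached an unadjusted p under 0.05, and their sums were 4697 to 5011 units in Se-deficient kidney and 4790 to 5441 units in Se-adequate kidney. Thick ascending limb markers had higher means in 4 of 7 genes, with a median of 0.01. Distal convoluted tubule markers had higher means in 3 of 6, with a median of 0.03. In each of these 2 lists 1 gene lay lower without overlap, as did 4.63% of all genes. They were Cldn16, the claudin for magnesium in the thick ascending limb (−0.25), and Trpm6, the magnesium channel of the distal convoluted tubule (−0.30). In the distal list 1 gene lay higher without overlap, as did 4.4% of all genes.

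Beyond the selenoproteins and Nrf2 targets, the genes with the smallest p in each direction were of mixed function, and none was called. Ttpa, the alpha-tocopherol transfer protein, which handles vitamin E, had 6.51, 6.80 and 6.78 in Se-deficient kidney, against 7.24, 7.35 and 7.08 in Se-adequate kidney, a difference of −0.53. Ech1, an enzyme of fatty acid oxidation, had 11.27, 11.46 and 11.33 in Se-deficient kidney, against 11.65, 11.79 and 11.80 in Se-adequate kidney, a difference of −0.39. Nat2, an arylamine N-acetyltransferase, had 8.56, 8.46 and 8.68 in Se-deficient kidney, against 8.89, 9.06 and 8.89 in Se-adequate kidney. Wdr53 differed by −0.81 and its other probe set by −0.25, both without overlap. Sfmbt2, Pwwp2a, H2bc22 and 9630050P21Rik differed by −0.34, −0.50, −0.29 and −0.28, although the other probe sets of Sfmbt2 and Pwwp2a gave 0.17 and 0.09. On the higher side, Stk11ip had 6.25, 6.36 and 6.57 in Se-deficient kidney, against 5.75, 5.80 and 5.95 in Se-adequate kidney, with an adjusted p of 0.84. Washc4 (0.54), Pik3cd (0.37), Casp14 (0.35), Trim60 (0.34), Krt17 (0.34), D5Ertd615e (0.32), Mamld1 (0.32) and Creb3l1 (0.29) followed, each without overlap. Other probe sets of some of these genes gave smaller or opposite differences. The values were −0.20 to 0.19 for Pik3cd, −0.01 for Krt17, 0.02 for Trim60 and 0.12 for Casp14. The Pik3cd probe set at −0.20 lay lower in Se deficiency without overlap. For Washc4 the other probe sets gave −0.10 to 0.57, and the one at 0.57 was without overlap.

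Changes beyond 2-fold were rare, with 6 higher and 5 lower probe sets (0.0244% of those tested), of which only the 3 called ones passed the test. Ces1g, a carboxylesterase, had 7.43, 7.95 and 8.48 in Se-deficient kidney, against 7.00, 5.95 and 5.94 in Se-adequate kidney. This was the largest difference of a gene with 1 symbol, 1.66 ± 0.46 (SE), but its spread within each diet was wide and its adjusted p was 0.89. Cast, calpastatin, had 8.45, 7.39 and 7.97 in Se-deficient kidney and 7.27, 6.11 and 7.06 in Se-adequate kidney. For Cast these values are from a probe set that is not the one with its highest mean. Apart from the 3 called, the others were Selenom, 4 probe sets without a symbol and 1 with several symbols.

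Few genes of other pathways stood out. In the methionine cycle and transsulfuration Csad, which makes hypotaurine from cysteine sulfinate, differed by 0.35 without overlap. It had 11.53, 11.59 and 11.48 in Se-deficient kidney, against 11.15, 11.21 and 11.19 in Se-adequate kidney. Inmt, a methyltransferase that can also methylate Se compounds, had 13.05, 13.09 and 13.12 in Se-deficient kidney, against 13.32, 13.32 and 13.17 in Se-adequate kidney, a difference of −0.18. Cyp2e1, a cytochrome P450 induced by androgens in male mouse kidney, had 13.33, 13.26 and 13.40 in Se-deficient kidney, against 13.05, 13.04 and 13.19 in Se-adequate kidney. Ier2, an immediate early gene, differed by −0.53 with overlap, and Ifit2, an interferon response gene, by −0.39 without overlap. All 5 genes had an adjusted p of 0.89. The medians of the lists for cell cycle (0.06), respiratory chain (−0.04), proteasome (0.00), cholesterol synthesis (−0.03), fatty acid oxidation (−0.02), stress and unfolded protein response (−0.01) and ferroptosis (0.00) lay near that of all genes.

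The response in kidney was set against that in liver in 1 fit of 18 arrays, by the difference of the 2 differences. The fit took the arrays as independent. With 3 mice per diet in the study, kidney and liver may come from the same mice, but the labels do not link them. Only Cbr3 was called (0.00222% of 45037 probe sets), and 5.79% had an unadjusted p under 0.05. Cbr3 differed by 0.21 ± 0.14 (SE) in kidney and by 2.94 in liver, a kidney minus liver difference of −2.73 with an adjusted p of 1.5e-05 in limma. Abcc4 differed by 0.92 in kidney and 1.89 in liver (adjusted p = 0.83 for the difference), Nqo1 by 0.71 and 0.89 (0.88) and Gsta2 by 0.34 and 0.95 (0.83). Gsta3 differed by 0.80 in kidney and 0.10 in liver, with an adjusted p of 0.30 for the difference. Gsta4 (−0.15 in kidney and 0.80 in liver), Hspb1 (−0.27 and 0.93) and Cbr1 (0.03 and 0.92) had adjusted p of 0.35, 0.35 and 0.83, so a difference between the tissues was not shown for them.

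A difference between the tissues was not called for any selenoprotein. Selenoh changed by −1.44 in kidney and −1.47 in liver, with a kidney minus liver difference of 0.03 ± 0.15 (SE). Gpx1 changed by −1.26 in kidney and −1.15 in liver, a difference of −0.12 ± 0.12 (SE). Selenow changed by −1.44 in kidney and −1.90 in liver in 1 probe set, and by −0.34 and −1.55 in the other, with adjusted p of 0.83 and 0.30 for the difference. Selenok was the selenoprotein with the smallest p for the difference, with −0.24 in kidney and −0.98 in liver, a difference of 0.74 and an adjusted p of 0.25 in limma. Selenom had −1.05 in kidney and −0.40 in liver, with an adjusted p of 0.83.

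**Figure D5:**
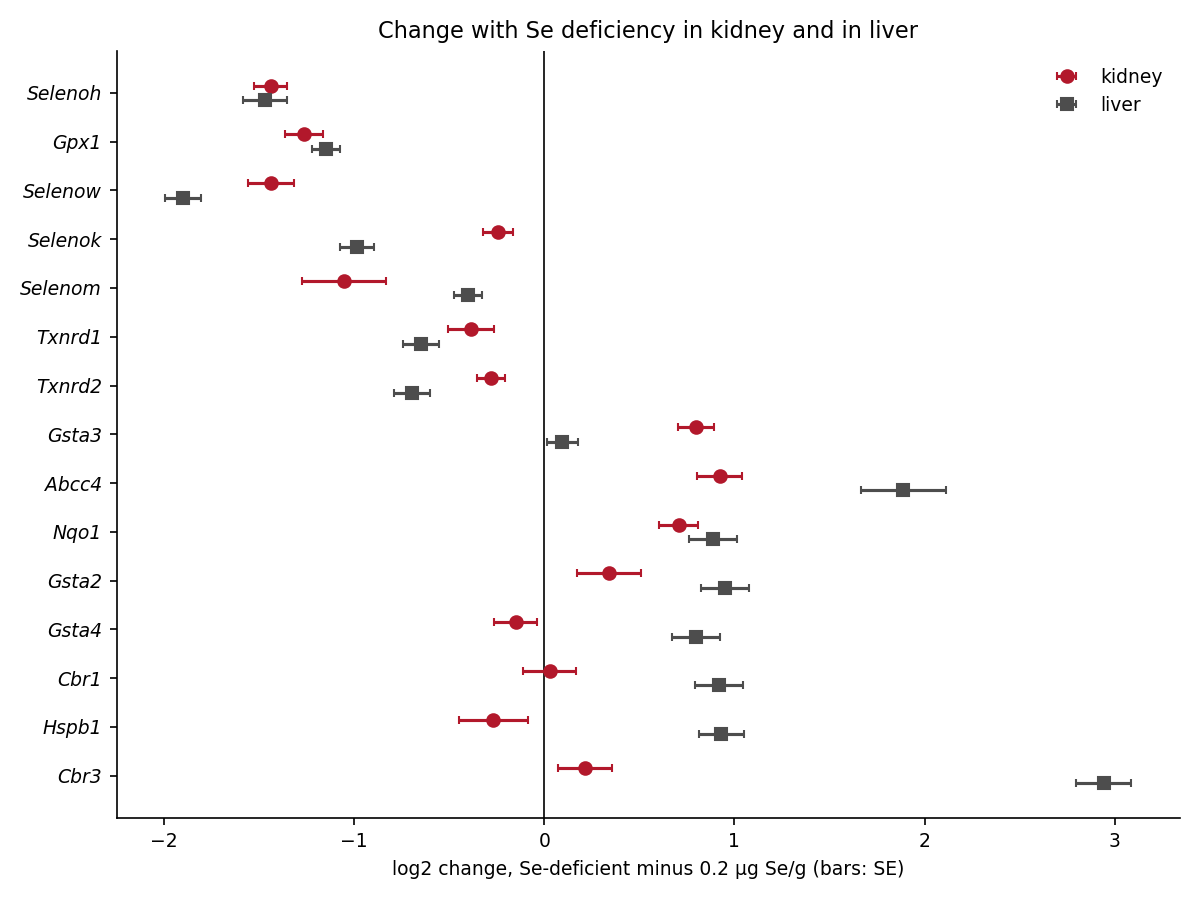
Log2 change (Se-deficient minus 0.2 μg Se/g) of 15 named genes in kidney (red circles) and liver (grey squares), with the SE of each fit as bars. Cbr3, at 0.21 in kidney and 2.94 in liver, is the only gene with a called difference between the tissues.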

How the data were processed

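RNA of 9 mouse kidney and 9 mouse liver samples had been hybridized to Affymetrix mouse genome arrays. The deposited values are log2 expression levels per probe set that the authors made from the scans. The submitters' processing notes name GCRMA and the study's methods name RMA, run per tissue, so low levels could differ between the methods. Of 45101 rows, 64 array controls were left out and 45037 were tested without a filter, and 0 per-sample columns of the mouse table were left unused. Symbols came from the platform annotation, and 34741 of 34945 probe sets with 1 symbol matched the GRCm38.p6 gene table by Entrez ID. A gene is represented by its probe set with the highest mean over the kidney arrays.

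R 4.3.3 with limma 3.58.1 (lmFit with 1 coefficient per diet, eBayes, Benjamini-Hochberg adjustment, threshold 0.05) was used on the 9 kidney arrays, or on the 18 arrays for the comparison with liver. Python 3.11.15 with pandas 2.3.3 and matplotlib 3.10.9 was used for sequences and figures. Exact tests of 3 against 3 arrays, which cannot give a p below 0.1, were not used. The number of arrays limits the precision. The fits were checked on simulated data with known changes.

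Genes were named if called, among the 12 smallest p in each direction, selenoproteins, named by the study for mice, or among the 4 smallest p of a list. Genes outside this rule were chosen after their values were seen. The comparison and the 43 lists were chosen with earlier results of these data known. The alternatives were only the arrays of the 2 diets, trend and robust, array weights, a filter at the median level, quantile normalization, a replicate block, all 18 arrays and leaving out each array.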

Additional observations from a re-analysis of the deposited data

Results flagged for a closer look

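Cbr3 was the only probe set whose response to Se deficiency differed between kidney and liver in the test of that difference, by −2.73 on the log2 scale (kidney minus liver, limma adjusted p of 1.5e-05). In kidney Se-deficient and Se-adequate arrays overlapped, with a difference of 0.21, while in liver the difference was 2.94. The call held in all 18 alternatives of this comparison, with values from −2.89 to −2.61. Outlying arrays within a group were looked for only by leaving out each array, since Dixon's test was not used on groups of 3.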

How the results depend on the processing

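Of 13 alternatives for kidney, 10 kept all 3 calls. With only the arrays of the 2 diets, where the spread rested on 6 arrays, 1 probe set was called (Selenoh). Gpx1 and Selenow then had adjusted p of 0.067 and 0.068 in limma. Array weights gave 6 calls (Gsta3, Nqo1 and Abcc4 higher in addition), and all 18 mouse arrays in 1 fit gave 5 (Gsta3 higher and Cldn9 lower). Quantile normalization gave 4 (Gsta3 higher in addition). The cause of these losses and additions was not tested. Leaving out each array gave 2 to 4 calls. Selenow was lost without Se-deficient replicate 3 or Se-adequate replicate 1, Nqo1 was gained without Se-deficient replicate 1 and Abcc4 without Se-deficient replicate 2. With the replicate block there were 3 calls, the same as without it. Arrays with the same number in Se-deficient and Se-adequate kidney had residual correlations of 0.107, 0.0903 and 0.276, of which 1 was below the limit of 0.1, and the labels do not say what a number marks, so the numbers were not taken as pairs. Each Se-deficient and Se-adequate array correlated best with the array of its own number in the other diet, and the hybridization spike-ins also went with the number, with mean log2 levels of 11.22, 11.59 and 11.72 in Se-deficient replicates 1, 2 and 3 and 11.12, 11.46 and 11.68 in Se-adequate replicates 1, 2 and 3. Both are hints from the data and not from the design. For kidney minus liver the count was 1 in 16 of 18 alternatives. This held too with a random block for kidney and liver arrays of the same diet and number. Residual correlations between such arrays ran from −0.114 to 0.249. It was 5 with array weights (Gsta3, Gsta4, Selenok and the second probe set of Selenow in addition) and 2 without Se-adequate liver replicate 1, so that leaving out each array gave 1 to 2. None of 39 recomputed probe sets, of which Selenow has 2, changed direction in the alternatives for kidney. Quantile normalization moved the median of all genes to 0.00, against −0.01. The number of arrays limits the precision of all values.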
